A study of Mus musculus with 36 samples.

Results

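Mature microRNA (miRNA) levels were compared between 2 lines of B3, a mouse pre-B cell line, 6 h after both had been given the same drug. The comparison took the 3 samples of the Ikaros line and the 3 of the control line collected at 6 h, so 6 of the 36 samples of the series, chosen by their labels alone, and it covered all 469 miRNAs of the table. The Ikaros line had been transduced with a retroviral vector (MSCV) that expresses HA-tagged Ikaros fused to ERt2, a tamoxifen-responsive domain of the oestrogen receptor, together with GFP from the same transcript. The control line carried the same vector with ERt2 and GFP but without Ikaros. Both lines were sorted on GFP and both received 0.5 uM 4-hydroxytamoxifen (4-OHT). Each line is 1 transduced population, so a stable difference between the populations and an effect of nuclear Ikaros cannot be told apart from the 6 h samples alone. The labels number the replicates 1, 2 and 4 and place each number in a shared culture batch (batches 1, 2 and 3), so an Ikaros and a control sample of the same number form a pair. Values below are given in the order of replicates 1, 2 and 4.

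Ikaros is a zinc-finger transcription factor that pre-B cells need in order to stop dividing and go on to the small pre-BII stage, and B3 cells enter that step when the fusion protein moves to the nucleus. miRNAs are short RNAs that guide Argonaute proteins to messenger RNAs, mostly through pairing of the seed, the bases 2 to 8 of the mature strand. Each hairpin can give a mature strand from either of its arms (5p and 3p), and hairpins that lie close together on a chromosome are often cut from the same primary transcript. The miRNAs that share a seed can address the same targets.

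The sequences of the miRNAs on which the differences turn are shown first, each 5′ to 3′ from RefSeq (GRCm38.p6) with the seed in capitals. The first set is the pair of miR-10 strands, with the largest difference of all and the largest among abundant miRNAs, which share the seed ACCCUGU. Position 12 counted from the 5′ end is their only difference (A12U, miR-10b-5p first).
miR-10b-5p: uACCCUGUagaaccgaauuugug
miR-10a-5p: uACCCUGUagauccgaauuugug

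The next set comes from the hairpins in introns of Clcn5 on the X chromosome, all of which gave higher levels in the Ikaros line. It holds 2 pairs with a common seed, miR-362-5p with miR-500-5p and miR-500-3p with miR-501-3p.
miR-188-3p: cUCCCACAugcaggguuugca
miR-188-5p: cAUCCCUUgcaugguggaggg
miR-532-3p: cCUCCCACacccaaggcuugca
miR-362-5p: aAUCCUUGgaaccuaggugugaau
miR-500-5p: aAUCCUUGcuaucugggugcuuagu
miR-500-3p: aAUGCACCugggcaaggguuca
miR-501-3p: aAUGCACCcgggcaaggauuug

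The third set is lower in the Ikaros line. In it miR-200b-3p and miR-429-3p share a seed from which that of miR-200a-3p differs.
miR-200b-3p: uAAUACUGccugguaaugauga
miR-429-3p: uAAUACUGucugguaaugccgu
miR-200a-3p: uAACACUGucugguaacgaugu
miR-127-3p: uCGGAUCCgucugagcuuggcu
miR-410-3p: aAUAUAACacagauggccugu
miR-34a-5p: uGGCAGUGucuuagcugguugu
miR-221-3p: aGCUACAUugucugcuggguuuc
miR-21a-5p: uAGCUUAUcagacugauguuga

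All values are on the log2 scale of the authors' normalised table, so a difference of 1 is a doubling. Small levels could be compressed by the normalisation, which was not tested. The 6 samples had similar medians over all miRNAs (3.74 to 4.04), and their 10 most abundant miRNAs made up 77.5% to 81.3% of the summed linear level. Pearson's r over the miRNAs was 0.987 to 0.996 between samples of the same line and 0.970 to 0.985 between lines. The median SD of a miRNA was 0.27 among the Ikaros samples and 0.24 among the control samples. Of 8 names on the marker list of the haematopoietic and B lineage, 6 were present. By mean level at 6 h, miR-181a-5p ranked 2, miR-181b-5p 6, miR-20a-5p 19, miR-155-5p 56, miR-17-5p 129 and miR-150-5p 228 of all miRNAs. None of these 6 was called between the lines, beside 15.1% of all miRNAs. The remaining 2 names of that list are those of miR-142a, which the table holds as miR-142-3p and miR-142-5p and of which neither was called. Of 19 markers of other cell types, 10 were listed. Of these 10, 4 (miR-200a-3p, miR-200b-3p, miR-429-3p and miR-126a-3p) were called, beside 15.1% of all miRNAs, and are among the differences below. The 10 lay at mean levels of 0.91 to 13.35. The highest was miR-9-5p, a miRNA known from neural cells, at rank 18, with 13.35 in the Ikaros samples and 13.33 in the control samples. Their summed linear level was 13.21 to 13.54 (log2) over the Ikaros samples and 13.24 to 13.47 over the control samples, and without miR-9-5p 7.87 to 8.18 and 7.87 to 8.20, so the sums overlapped. The sums join differences of opposite direction. Of the called markers, miR-126a-3p was higher in the Ikaros line, and miR-200a-3p, miR-200b-3p and miR-429-3p were lower. Equal sums therefore do not show that the single markers were alike. In RNA of a whole culture, fewer cells with a miRNA and less of it per cell cannot be told apart.

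A limit of the design, which follows from the drawing of the sequencing runs in the methods, bears on every difference below. All 3 control samples of 6 h were sequenced in the second batch only, whereas the 3 Ikaros samples were in the first and 1 of them in both. The sequencing batch was corrected for before deposit, and apart from that correction it cannot be told apart from the line in these samples. The control samples of 24 h were mostly run in the first batch and came from the same culture batches. With these in place of the control samples of 6 h, 68 miRNAs passed, among them 54 of the 71 that passed in the actual comparison and with the same direction. The Ikaros samples are the same in both fits. Among the 17 that did not pass were miR-34b-3p, miR-34c-5p, miR-200a-3p and miR-211-5p.

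Between the lines, 71 of 469 miRNAs (15.1%) differed at 6 h with an adjusted p below 0.05 (limma, Benjamini-Hochberg over all miRNAs), and such miRNAs are termed called. In the Ikaros line 37 were higher (7.89%) and 34 were lower (7.25%). The largest positive differences were those of miR-10b-5p, of miR-10a-5p and of the Clcn5 hairpins, and the largest negative ones those of miR-127-3p, miR-410-3p, miR-34a-3p and the miR-200b hairpins. The difference was at least 1 for 36 of the called miRNAs, 7.68% of all miRNAs, with 22 higher (4.69%) and 14 lower (2.99%). All 71 differed in the same direction in each of the 3 pairs, with a median size of 0.93, 1.11 and 1.09 in pairs 1, 2 and 4. As the 71 were called on these same samples, this follows largely from the selection and is given as a description. Over all miRNAs the 2 groups of 3 samples did not overlap for 161 (34.3%).

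The direction of small differences depends on the scaling. The median difference of all miRNAs was -0.01 as deposited, 0.15 after each sample's median was subtracted and -0.03 after quantile normalisation. The called miRNAs were split into 46 higher and 20 lower by the first of these alternatives and into 28 higher and 37 lower by the second. Calls were made at all levels but least often at the bottom of the range, with 5.93% of the 118 least abundant miRNAs called (levels of 0.65 to 1.91) against 21.4% of the 117 most abundant (7.18 to 18.47). The median SE of the difference was 0.32 in the former and 0.22 in the latter.

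**Figure D1:**
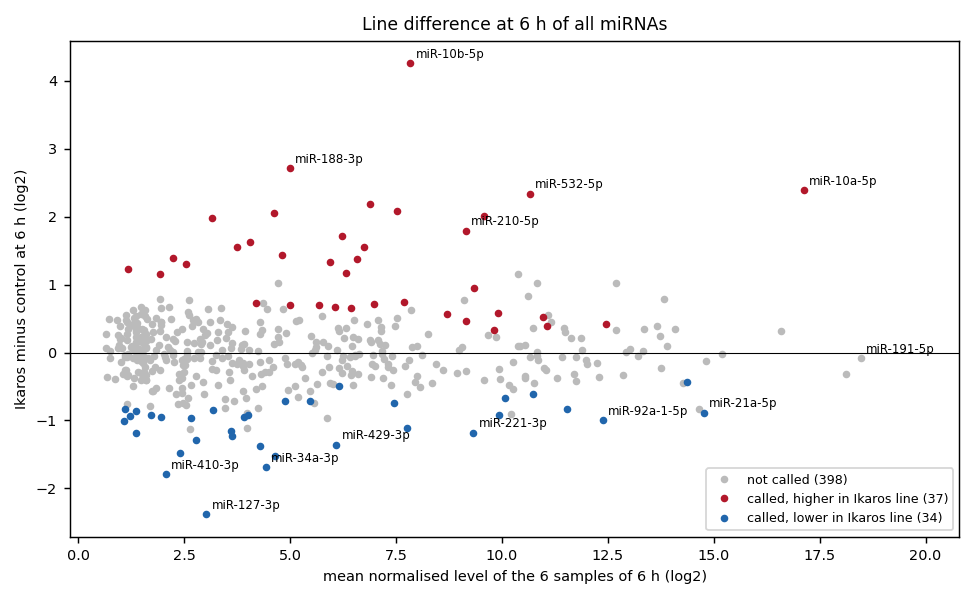
Difference between the lines at 6 h (Ikaros minus control, log2; y axis) against the mean level of the 6 samples (log2; x axis), 1 point for each of the 469 miRNAs. The 37 miRNAs called higher are red and the 34 called lower are blue; miR-10a-5p stands apart as the only called miRNA with a mean level above 15.

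miR-10a-5p was the most abundant of the called miRNAs. Its hairpin lies at chr11:96317165-96317274 on the plus strand (GRCm38), outside of any annotated gene of that strand, in the Hoxb region. It is a regulator of Hox genes and of haematopoietic differentiation. Its level was 19.03, 17.58 and 18.36 in the Ikaros samples and 16.45, 15.53 and 15.83 in the control samples. The lowest Ikaros sample was above the highest control sample, and replicate 1 was the highest of both lines. The difference was 2.39 (SE 0.57, adjusted p = 0.0035), a 5.25-fold higher level. Of the summed linear level of all miRNAs, miR-10a-5p alone took 28.2%, 16.1% and 22.1% in the Ikaros samples, against 6.31%, 3.85% and 4.34% in the control samples. The call was lost without replicate 2 (adjusted p = 0.0961) and in none of the other alternatives.

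The other arm of that hairpin, miR-10a-3p, was higher as well, by 1.34 (SE 0.25, adjusted p = 3.03e-04). It was measured at 6.199, 6.78 and 6.87 in the Ikaros samples and at 4.98, 5.64 and 5.21 in the control samples. The groups did not overlap, although the arm is far rarer than its partner.

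miR-10b-5p showed the largest difference of all miRNAs, 4.26 (SE 0.68, adjusted p = 4.79e-05), or 19.1-fold. Its hairpin is at chr2:74726070-74726137 on the plus strand, in introns of Hoxd3 and Hoxd4. The Ikaros samples were at 11.12, 9.16 and 9.61 and the control samples at 6.22, 5.06 and 5.84. The order of the replicates was that of miR-10a-5p in both lines. As the 2 mature strands differ by A12U alone, reads of the far more abundant miR-10a-5p with an error at this base could be counted as miR-10b-5p, and the 2 values are therefore uncertain as separate measurements. The linear level of miR-10b-5p was 0.42%, 0.29% and 0.23% of that of miR-10a-5p in the Ikaros samples and 0.08%, 0.07% and 0.10% in the control samples. These shares did not overlap between the lines. Over all 6 times they ranged from 0.16% to 0.42% in the Ikaros line and from 0.06% to 0.13% in the control line. In the Ikaros line they were 0.17%, 0.16% and 0.18% already at 0 h. Whether misread miR-10a-5p makes up part of the miR-10b-5p level was not tested.

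Summed over both strands, the ACCCUGU seed took 22.2% ± 6.1 (SD, n = 3) of the total linear level in the Ikaros line and 4.84% ± 1.301 (SD, n = 3) in the control line. Among the other seeds that 2 or more measured strands share, that of the miR-181 family (ACAUUCA) had the largest share, at 19.295% ± 3.7 and 27.1% ± 2.7 (SD, n = 3 each). None of its 4 measured members was called, beside 15.1% of all miRNAs. Among the 8 measured strands of miR-10, miR-99, miR-100 and miR-125, only the 3 strands of miR-10 were called, all higher, beside 7.89% of all miRNAs.

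The Clcn5 cluster was higher as a whole. Its hairpins, miR-500, miR-501, miR-362, miR-188 and miR-532, lie within chrX:7237683-7248497 on the minus strand (GRCm38), in introns of the chloride transporter gene Clcn5. All 10 of its measured strands were called higher, beside 7.89% of all miRNAs, with a median difference of 2.03 beside -0.01 for all miRNAs and a range of 1.56 to 2.71. Adjusted p-values ran from 1.78e-08 to 0.00422. Mean levels went from 4.14 to 11.83 in the Ikaros line and from 2.16 to 9.49 in the control line. In none of the 10 strands did the 2 groups of samples overlap, beside 34.3% of all miRNAs without overlap. As the calls rest on the same values, this is not separate support. The calls of miR-500-5p, miR-500-3p and miR-501-5p were kept in 15, 16 and 17 of 18 alternatives, and each was lost without replicate 2.

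The most abundant strand of the cluster was miR-532-5p, at 11.89, 12.14 and 11.46 in the Ikaros samples and 9.66, 9.36 and 9.45 in the control samples. The samples of a line lay within 0.7 of each other, and the difference of 2.34 (SE 0.23, adjusted p = 1.78e-08, 5.06-fold) had the smallest p of all miRNAs. Its other arm miR-532-3p was at 8.38, 9.26 and 8.07 against 6.27, 6.49 and 6.69, a difference of 2.09 (SE 0.28).

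The largest difference in the cluster was that of miR-188-3p, 2.71 (SE 0.33, adjusted p = 1.08e-06, 6.55-fold), from 6.89, 6.30 and 5.85 in the Ikaros samples and 3.88, 3.56 and 3.47 in the control samples. The 5p arm of the same hairpin was at 5.83, 6.07 and 5.03 against 3.78, 3.67 and 3.34 and differed by 2.05 (SE 0.34). The 2 arms of this hairpin are close in abundance, whereas in miR-501 the 3p arm dominates.

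miR-501-3p was found at 11.02, 10.60 and 10.13 in the Ikaros samples and at 8.78, 8.37 and 8.60 in the control samples, 2.01 apart (SE 0.33, adjusted p = 5.69e-05). miR-500-3p, with the same seed, was at 7.42, 8.19 and 6.99 against 5.63, 6.25 and 6.06, and 1.56 apart (SE 0.36, adjusted p = 0.00295). The second pair with a common seed was likewise higher, miR-362-5p by 2.19 (SE 0.40) and miR-500-5p by 1.98 (SE 0.48). The latter was the most variable strand of the cluster, at 5.09, 3.87 and 3.46 in the Ikaros samples and at 2.24, 2.29 and 1.94 in the control samples, and replicate 1 of the Ikaros line lay above the others.

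**Figure D2:**
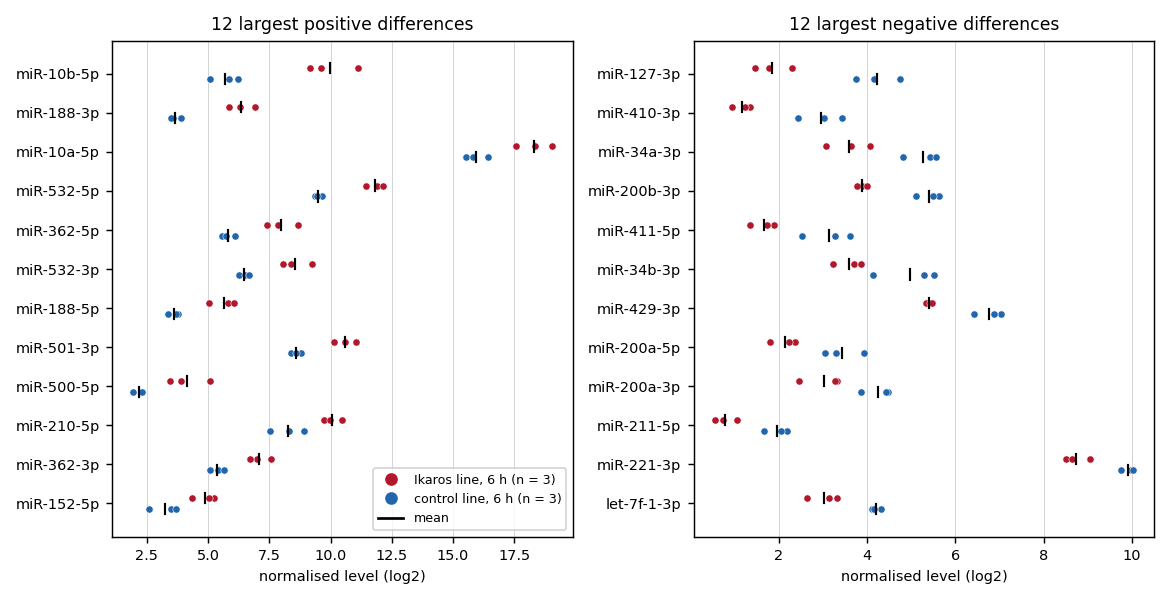
Levels at 6 h (log2; x axis) of the 12 called miRNAs with the largest positive differences (left) and the 12 with the largest negative differences (right). Each point is a sample, red for the Ikaros line and blue for the control line (n = 3 each), and black bars are means. In none of the 24 rows do the red and blue points overlap, which follows largely from their selection on these samples. Over all miRNAs 34.3% do not overlap.

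Other higher levels concerned single hairpins. miR-210-5p comes from chr7:141221384-141221493 (minus strand), a hairpin known for its induction under low oxygen. It was at 9.71, 9.98 and 10.45 in the Ikaros samples and at 7.55, 8.31 and 8.91 in the control samples, a difference of 1.79 (SE 0.56, adjusted p = 0.0281). The order of the replicates was the same in both lines, and the spread between replicates was wide. The call was kept in 12 of 18 alternatives. Its 3p arm, usually taken as the guide, was at 10.88, 11.29 and 10.94 against 9.565, 10.37 and 10.68 and missed the threshold (difference 0.83, 95% interval 0.14 to 1.52, adjusted p = 0.103).

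miR-152-5p, from an intron of Copz2 at chr11:96850393-96850465, was higher by 1.63 (SE 0.33, adjusted p = 7.58e-04), with values of 5.26, 4.33 and 5.05 against 3.49, 2.58 and 3.67. Replicate 2 was the lowest in both lines. miR-146a-5p, which limits signalling by Toll-like receptors and NF-κB, was at 9.73, 9.75 and 9.98 against 8.89, 8.64 and 9.10 and was higher by 0.95 (SE 0.21, adjusted p = 0.00166). It was the only call among the 7 measured strands of miR-146, miR-150 and miR-155, which is near the 15.1% of all miRNAs. The difference of miR-155-5p was -0.07 (95% interval -0.44 to 0.30).

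Among the listed strands, smaller positive differences were those of miR-29c-3p (0.70, adjusted p = 0.00431), miR-26b-3p (0.71, adjusted p = 0.0276), miR-450b-5p (0.65, adjusted p = 0.00531) and miR-148b-3p (0.53, adjusted p = 0.0421). The calls of miR-26b-3p and miR-148b-3p were kept in 10 and in 4 of 18 alternatives. miR-29c-3p differs from miR-29a-3p by U10C alone. The latter is the more abundant, and its difference was -0.38 (adjusted p = 0.0838), so the 2 did not move together. Outside the lists, and chosen after their values were seen, miR-126a-3p (difference 1.37, SE 0.18, adjusted p = 1.96e-06) and miR-28a-3p (1.44, SE 0.28, adjusted p = 4.37e-04) were higher. miR-126a-3p, known from endothelial and haematopoietic progenitor cells, was at 7.04, 7.48 and 7.27 in the Ikaros samples and at 5.84, 5.90 and 5.94 in the control samples.

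The lower levels were led by miRNAs of a region on chromosome 12. This is the imprinted Dlk1-Dio3 region, whose many miRNAs are expressed from the maternal chromosome, mostly in embryonic and neural tissue and in stem cells. As a group it was picked after its values were seen, as the measured strands of plus-strand hairpins from Mir127 to Mir410 (chr12:109592846-109743795, GRCm38). Of its 8 measured strands 6 were called lower, beside 7.25% of all miRNAs, and the median difference was -1.07. They were rare in both lines, at means of 0.56 to 2.09 in the Ikaros samples and 1.52 to 4.22 in the control samples.

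miR-127-3p (hairpin chr12:109592846-109592915) had the largest negative difference of all miRNAs. Its levels were 1.77, 2.29 and 1.45 in the Ikaros samples and 3.75, 4.74 and 4.16 in the control samples. No Ikaros sample came near the control range, and the lines differed by -2.38 (SE 0.39, adjusted p = 5.69e-05), or 5.19-fold. A difference of this size was there at 0 h (-2.61) and 2 h (-2.55). miR-410-3p, from an exon of the lincRNA gene Mirg (chr12:109743715-109743795), was at 0.93, 1.35 and 1.23 against 2.44, 3.44 and 3.01 and differed by -1.79 (SE 0.39, adjusted p = 0.00166). miR-411-5p was at 1.89, 1.73 and 1.36 against 2.53, 3.61 and 3.28 and differed by -1.48 (SE 0.38, adjusted p = 0.00643). The other called strands of the region, miR-381-3p, miR-409-3p and miR-434-5p, differed by -1.01, -0.93 and -0.83. The 2 that were not called, miR-541-5p and miR-434-3p, differed by -1.13 and -0.76.

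The second group of lower levels was that of miR-200b, miR-200a and miR-429, whose hairpins lie within chr4:156053905-156055750 on the minus strand, in introns of Ttll10. These miRNAs repress Zeb1 and Zeb2 and are best known from epithelial cells. All 5 measured strands were called lower, beside 7.25% of all miRNAs, with differences of -0.95 to -1.52 and a median of -1.29. With the culture batch as a block 4 of the 5 were called, as the rarest, miR-200b-5p, lost its call, which was kept in 8 of 18 alternatives. miR-429-3p was the most abundant, at 5.33, 5.43 and 5.46 in the Ikaros samples and 6.41, 7.03 and 6.87 in the control samples. The Ikaros samples lay very close together, and the lines differed by -1.36 (SE 0.23, adjusted p = 9.56e-05, 2.56-fold). miR-200b-3p was at 3.89, 4.00 and 3.78 against 5.10, 5.63 and 5.49 and differed by -1.52 (SE 0.34, adjusted p = 0.00219). miR-200a-3p was at 2.45, 3.32 and 3.28 against 3.86, 4.47 and 4.43 and differed by -1.23 (SE 0.36, adjusted p = 0.0187).

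The members of the family on chromosome 6, within chr6:124717914-124718390, were measured as well. None of their 3 strands was called, beside 15.1% of all miRNAs. miR-200c-3p, which has the seed of miR-200b-3p and miR-429-3p, was at a mean of 4.82 in the Ikaros samples and 4.67 in the control samples (difference 0.15, 95% interval -0.33 to 0.63). That interval does not reach the differences of the chromosome 4 strands. miR-141-3p differed by 0.34 (95% interval -0.50 to 1.18) and miR-141-5p by -0.74 (adjusted p = 0.0819). As miR-200a-3p and miR-141-3p differ at 2 bases (C17A and U22G, miR-200a-3p first), some exchange of reads between them could occur.

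The miR-34 family, targets of p53 that restrain the cell cycle, was lower in 4 of the 8 measured strands of miR-34 and miR-449, beside 7.25% of all miRNAs, with a median of -0.69. The hairpin of miR-34a lies at chr4:150068454-150068555. miR-34a-5p was at 9.46, 9.64 and 9.34 in the Ikaros samples and at 10.35, 10.35 and 10.51 in the control samples. The control samples were nearly alike and all above the Ikaros samples, and the lines differed by -0.92 (SE 0.17, adjusted p = 2.12e-04). Its 3p arm was at 3.06, 4.06 and 3.63 against 5.42, 5.57 and 4.82 and differed by -1.69 (SE 0.39, adjusted p = 0.00233). miR-34b-3p differed by -1.38 (adjusted p = 0.0123) and miR-34c-5p by -0.67 (adjusted p = 0.0451). These last 2 calls were kept in 12 and in 5 of 18 alternatives. The 2 strands of miR-449a, which shares its 5p seed with miR-34a, differed by 0.03 and 0.06.

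miR-21a-5p was the most abundant miRNA that was lower. It is made from a hairpin within an exon of Vmp1 at chr11:86584067-86584158 and is known as a target of STAT3 and as a promoter of cell survival. Levels were 14.42, 14.16 and 14.38 in the Ikaros samples and 15.02, 15.30 and 15.31 in the control samples. The difference of -0.89 was large against its SE of 0.14 (adjusted p = 3.48e-05, 1.85-fold). The 3p arm, at a mean of 9.82 against 10.06, was not called.

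miR-221-3p, a repressor of the cell cycle inhibitor p27, was at 9.05, 8.50 and 8.65 against 9.97, 9.74 and 10.03 and differed by -1.18 (SE 0.18, adjusted p = 3.46e-05). Its neighbour miR-222-3p, with the same seed, was much rarer and differed by -0.43 (95% interval -1.16 to 0.30). miR-27a-5p was at 7.37, 6.86 and 7.40 against 8.66, 8.09 and 8.19 and differed by -1.10 (SE 0.19, adjusted p = 1.07e-04). It was the only call among 10 strands of the miR-23, miR-27 and miR-24 clusters, which is near the 7.25% of all miRNAs. miR-211-5p, from an intron of Trpm1, differed by -1.18 (adjusted p = 0.0299) at a level near the bottom of the range, a call kept in 8 of 17 alternatives.

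The miR-17-92 cluster and its paralogs drive growth of B cell precursors. Of their 13 guide strands, 2 were called lower, and of the 15 partner strands 3, beside 7.25% of all miRNAs. Of the 5 called strands, 4 belong to the paralog on the X chromosome (chrX:52741693-52742567), namely miR-20b-5p (-0.83, adjusted p = 0.00224), miR-363-3p (-0.61, adjusted p = 0.0303), miR-106a-3p (-0.94, adjusted p = 0.0258) and miR-92a-2-5p (-0.92, adjusted p = 0.0111). The call of miR-363-3p was kept in 9 of 18 alternatives and that of miR-106a-3p in 12. The only call within the original cluster on chromosome 14 was miR-92a-1-5p, an abundant partner strand at 12.102, 11.67 and 11.86 in the Ikaros samples and 13.04, 12.80 and 12.80 in the control samples (difference -0.999, SE 0.17, adjusted p = 1.16e-04). Its guide strand miR-92a-3p, which can come from either cluster, differed by -0.36 (95% interval -0.92 to 0.20). None of the 6 strands of the third cluster, in Mcm7, was called, beside 15.1% of all miRNAs.

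In the let-7 family 2 of 14 strands were called lower, beside 7.25% of all miRNAs. let-7f-5p differed by -0.44 (SE 0.12, adjusted p = 0.0129), from 14.11, 14.09 and 14.25 against 14.53, 14.67 and 14.58. This call was kept in 10 of 18 alternatives and was lost with either scaling and without any 1 of the 3 replicates (adjusted p up to 0.311). let-7f-1-3p differed by -1.16 (adjusted p = 0.0112). In the large Sfmbt2 cluster 3 of 35 strands were lower, miR-467b-5p, miR-467e-3p and miR-466n-3p, with differences of -0.71, -0.92 and -0.49. This share is near the 7.25% of all miRNAs, and the calls were kept in 5, 3 and 5 of 18 alternatives. Its members are near copies of each other, among which the reads could be split.

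Several families that are prominent in B cells were not called. No strand passed among 9 of miR-15, miR-16, miR-195 and miR-497, 8 of miR-181, 8 of miR-30 and 2 of the miR-182 cluster. Over all miRNAs 15.1% were called. The leading miR-16-5p differed by 0.32 (95% interval 0.05 to 0.58, adjusted p = 0.106), and miR-181a-5p by -0.32 (95% interval -0.71 to 0.07). The most abundant miRNA of all, miR-191-5p, was at 18.79, 18.09 and 18.42 against 18.74, 18.36 and 18.44, with a difference of -0.08 (95% interval -0.53 to 0.37). miR-142-5p, a miRNA of all blood cells, lay just outside the threshold, with 14.05, 14.27 and 14.39 in the Ikaros line below 14.90, 15.19 and 15.12 in the control line (difference -0.83, adjusted p = 0.0556).

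**Figure D3:**
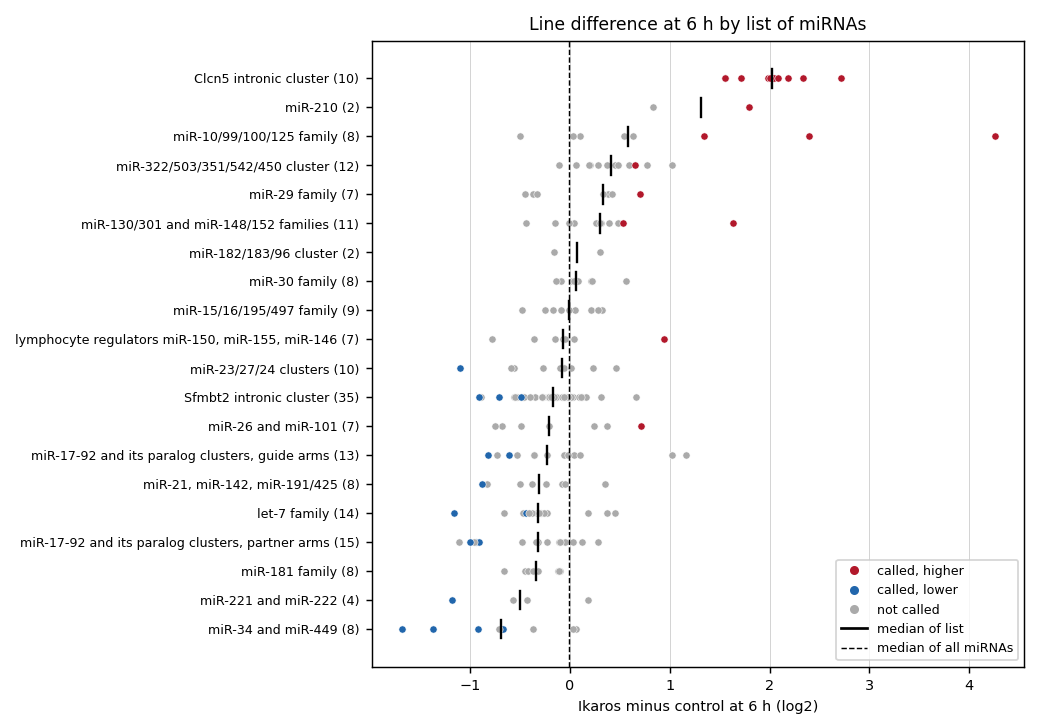
Difference between the lines at 6 h (Ikaros minus control, log2; x axis) for the members of 20 lists of miRNAs, with the number measured in parentheses. Points are miRNAs, red if called higher, blue if called lower and grey otherwise, short bars are list medians and the dashed line is the median of all 469 miRNAs (-0.01); the Clcn5 cluster has all of its 10 points on the right and the miR-34 list the lowest median (-0.69).

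Both arms were measured for 129 hairpin names. In 12 both arms were called, and each time in the same direction, as for the 5 Clcn5 hairpins and miR-10a on the higher side and miR-200a, miR-200b and miR-34a on the lower side. In 26 only 1 arm was called, and the other arm had the same sign in 19 of them. In 8 of the 26 the called arm was the rarer of the pair, as for miR-210-5p, which is less abundant than miR-210-3p. miR-221 was among those with opposite signs (5p 0.18, not called, 3p -1.18). Its 5p arm spread over 5.86 to 8.98 in the Ikaros line.

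**Figure D4:**
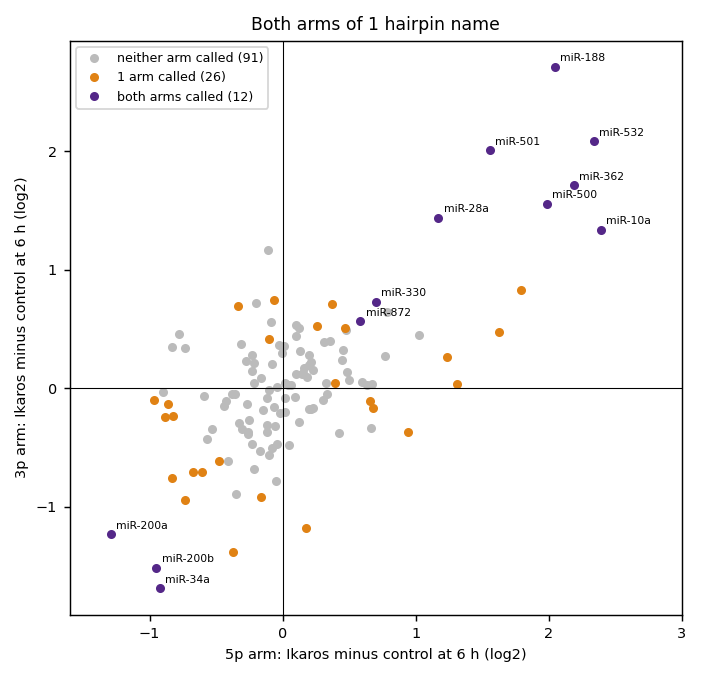
Difference of the 3p arm against that of the 5p arm (Ikaros minus control at 6 h, log2) for the 129 hairpin names with both arms measured. Purple points have both arms called (12, named), orange points 1 arm (26) and grey points neither (91); the purple points all lie in the upper right or lower left corner.

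To see whether the difference at 6 h had arisen after the drug, it was set against the difference at 0 h, before 4-OHT according to the methods, in separate cultures (batches 4, 5 and 6). No miRNA was called for a change of the line difference from 0 h to 6 h (limma, 0.0% of all miRNAs, with 21 or 4.48% at an unadjusted p below 0.05), and none from 2 h to 6 h (18 unadjusted, 3.84%). Within each line, too, no miRNA was called between 2 h and 6 h (20 unadjusted, 4.26%, for Ikaros and 17, 3.62%, for the control). These tests rest on 3 samples in each of 4 groups, and their intervals are wide for variable miRNAs such as miR-10a-5p, whose change from 0 h had a 95% interval of -1.31 to 1.991.

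At 0 h, 40 miRNAs (8.53%) were called between the lines. Of these, 34 were among the 71 of 6 h (85.0% of the 0 h calls and 47.9% of the 6 h calls), all in the same direction. Of the 71, 56 had a larger difference at 6 h than at 0 h, with a median gain of 0.30 in the direction of the call. As the 71 were selected on the 6 h values, a gain of this kind is partly fixed by the selection and is given as a description. A difference was called for 27 of the 71 at neither 0 h nor 2 h, and for 5 at no other time (miR-132-5p, miR-330-3p, miR-148b-3p, miR-1249-3p and miR-700-5p).

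The groups differed in how much was present at 0 h, when 8.53% of all miRNAs were called. The median of the Clcn5 cluster was 1.52 at 0 h, with 9 of 10 strands called, 2.15 at 2 h and 2.03 at 6 h. For miR-10b-5p the difference was 2.73 at 0 h and 4.26 at 6 h, and for miR-10a-5p 2.05 and 2.39. The chromosome 12 strands had a median of -1.43 at 0 h, with 7 of 8 called, and the chromosome 4 strands -1.10, with 3 of 5 called. For none of these groups was the change from 0 h called.

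None of the 6 strands of miR-34a, miR-34b and miR-34c was called at 0 h or 2 h, while 4 were called at 6 h and all 6 at 18 h and 24 h. The share called over all miRNAs also rose, from 8.53% at 0 h and 11.3% at 2 h to 15.1% at 6 h. It was 29.9% at 18 h and 39.9% at 24 h. The median difference of the 6 strands was -0.42 at 0 h. That of miR-34c-5p was -0.62 at 0 h and -0.67 at 6 h, that of miR-34b-3p -0.86 and -1.38, and that of miR-34a-5p -0.35 and -0.92. For miR-34a-3p it was -0.12 at 0 h and -1.69 at 6 h, a change of -1.57 (95% interval -2.68 to -0.45) that did not pass the correction (adjusted p = 0.788). That of miR-92a-1-5p went from -0.37 to -0.999 (change -0.63, 95% interval -1.14 to -0.13), and that of miR-27a-5p from -0.42 to -1.10 (change -0.68, 95% interval -1.24 to -0.13). Neither change passed. miR-210-5p went from 0.29 to 1.79, with a 95% interval of the change of -0.13 to 3.12.

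**Figure D5:**
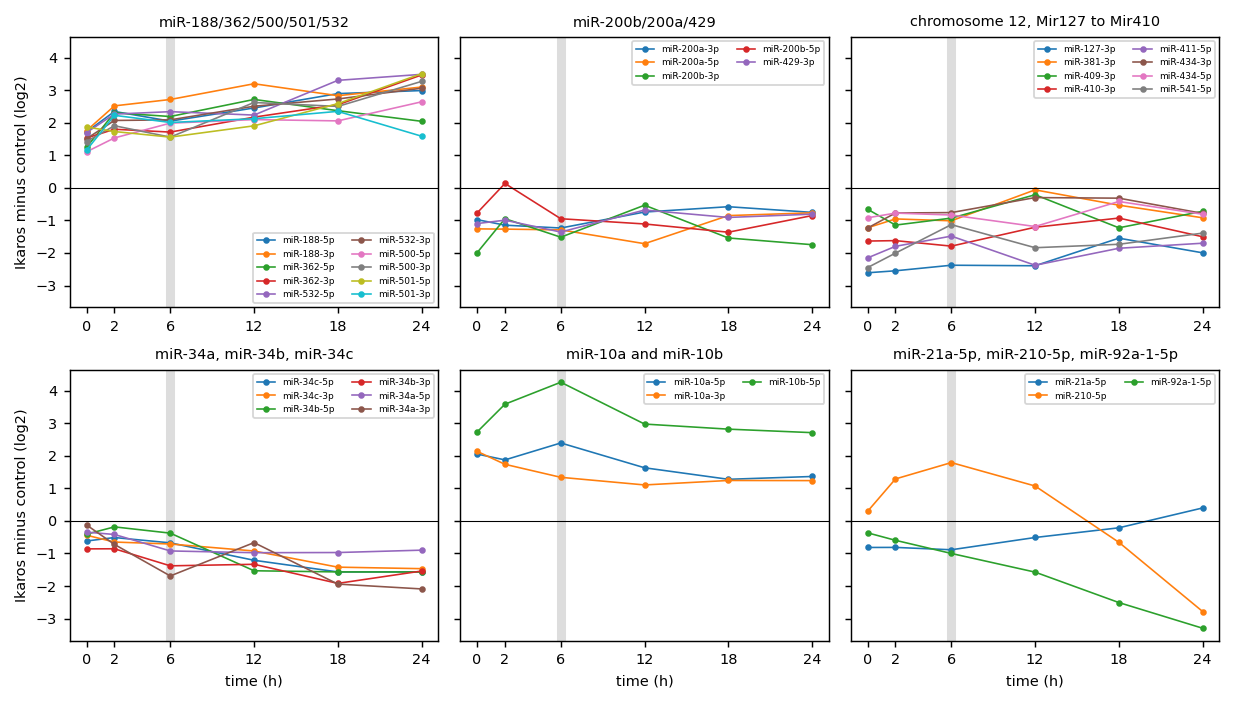
Difference between the lines (Ikaros minus control, log2; y axis) at 0, 2, 6, 12, 18 and 24 h (x axis), 1 line for each miRNA of 6 sets, with 6 h shaded; each point is a difference of means of 3 and 3 samples. The Clcn5 cluster and miR-10 are above 0 and the chromosome 12 set below 0 at every time. miR-210-5p crosses 0 between 12 h and 18 h, and miR-21a-5p between 18 h and 24 h.

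The number of miRNAs called between the lines was larger at the later times. A line difference was called for 53 miRNAs (11.3%) after 2 h, 102 (21.7%) after 12 h, 140 (29.9%) after 18 h and 187 (39.9%) after 24 h. At the last of these times 56 of the 71 were called, 54 of them in the same direction. The change of the line difference from 6 h to 24 h was called for 48 miRNAs (10.2%), 10 of them among the 71. Fewer were called when any replicate was left out. The control samples of 6 h and 24 h were mostly run in different sequencing batches, and the part of this in the changes was not tested. In the Clcn5 cluster the line difference of 4 strands was larger at 24 h, that of miR-501-5p by 1.95 (SE 0.48, adjusted p = 0.00816), miR-362-3p by 1.75 (adjusted p = 0.00745), miR-500-3p by 1.71 (adjusted p = 0.0293) and miR-532-5p by 1.15 (adjusted p = 0.0216). The difference of miR-92a-1-5p went from -0.999 to -3.29 (change -2.30, SE 0.25, adjusted p = 1.27e-07), the smallest p of the called 71.

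The 2 exceptions to the common direction were miR-21a-5p and miR-210-5p. The difference of miR-21a-5p was -0.89 at 6 h and 0.40 at 24 h, and the change of 1.28 was called (SE 0.20, adjusted p = 5.52e-05). For miR-210-5p a positive difference of 1.79 had turned to -2.78 by 24 h, a change of -4.57 (SE 0.80, adjusted p = 2.29e-04). Both were called at 6 h and again, with the opposite sign, at 24 h. miR-10a-5p and miR-10b-5p had smaller differences at 24 h than at 6 h (1.36 and 2.71), but these changes of -1.03 and -1.55 were not called.

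Because the calls of a comparison of 3 with 3 samples rest on single libraries, each call was followed through 18 alternatives, or 17 for the rarest miRNAs. All of them kept 21 of the 71 calls, 12 higher and 9 lower, among them miR-10b-5p, miR-10a-3p, miR-126a-3p, miR-127-3p, miR-200b-3p, miR-429-3p, miR-34a-5p, miR-21a-5p, miR-221-3p and both arms of miR-188, miR-362 and miR-532. Another 20 of the 71 calls were kept in 9 or fewer. With replicates 1, 2 and 4 in turn left out of every line and time, the count was 34, 22 and 41. These fits also had fewer samples for the spread. The count was 43 without the 6 h Ikaros sample of replicate 4 or the 6 h control sample of replicate 2. With the culture batch as a block in the fit, 70 miRNAs were called, 67 of them among the 71.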

How the data were processed

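Small RNA libraries of 36 samples (2 lines, 6 times, 3 replicates) had been made and sequenced by the study, and only the 6 h groups and the groups set beside them are described. Per the methods and labels, the authors aligned reads to mouse miRBase miRNAs with Novoalign, counted them with bedtools (mm10), filtered low miRNAs with NOISeq, corrected GC content with cqn, applied TMM and ComBat for the sequencing batch, and averaged technical runs. The deposited values are log2 normalised levels. The counts behind each value cannot be read from them, so no test, interval or floor based on counts could be given. Low values can recur exactly, as 0.4838 for miR-146a-3p in Ikaros replicates 1 and 2 at 6 h. Whether such values are a floor that limits the differences of rare miRNAs was not tested.

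Line differences were tested with limma 3.58.1 (R 4.3.3; lmFit and eBayes with a trend) on the means of 12 groups of 36 samples, with Benjamini-Hochberg adjustment over 469 miRNAs and a threshold of 0.05. The pairing was taken from the culture batch in the labels. It did not enter this main fit, so the SEs and p-values given are unpaired, and the block was an alternative. The deviations of same-numbered samples at 6 h correlated at 0.51, 0.46 and 0.12. Python 3.11.15 was used for tables. Alternatives were median or quantile scaling, the lowest 25% left out, no trend, fewer groups in the fit, the block and other control samples. Each replicate was also left out, from all 12 groups at once, and each single sample of 6 h. Where nothing else is said, sequences come from RefSeq (391 of 469 names matched) and hairpins from the GRCm38 annotation (371 matched).

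The miRNAs named were the 12 largest called differences of each direction with 1 sign in all 3 pairs, called members of the lists (of lists without a call, the most abundant member), the 10 most abundant miRNAs and the other arms; the exceptions are stated. Members, lists and rule were chosen with earlier results of these data known. The small RNA libraries do not measure the Ikaros transgene, so the lines were not checked by it.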

Additional observations from a re-analysis of the deposited data

Results flagged for a closer look

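The line difference at 24 h differed from that at 6 h for 48 miRNAs (limma, interaction of line and time). Among the miRNAs named here the change was 1.28 for miR-21a-5p, 1.02 for miR-29c-3p, -4.57 for miR-210-5p, -2.30 for miR-92a-1-5p, 1.75 for miR-362-3p, 1.15 for miR-532-5p, 1.71 for miR-500-3p and 1.95 for miR-501-5p. The control samples of 6 h were sequenced in the second batch and those of 24 h mostly in the first, and the part of this in the changes was not tested. Without replicates 1, 2 or 4 the number was 8, 15 or 17.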

How the results depend on the processing

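The number of miRNAs called at 6 h was 22 to 60 when 1 replicate or 1 sample was left out, and the number called for 24 h beyond 6 h was 8 to 17 (when a whole replicate was left out), against 71 and 48. Without replicate 2, 26 of the named calls missed the threshold and 20 were kept. Among the 26 were miR-10a-5p, miR-146a-5p, miR-34a-3p and the Clcn5 strands miR-500-5p, miR-500-3p and miR-501-5p. With the replicate block (70 called, 67 shared), miR-148b-3p, miR-200b-5p, miR-467b-5p and miR-467e-3p missed it. The block changed the other named calls in no case. Where 1 sample of a group was left out, the fit pooled the spread over all groups.

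Of the 71 called miRNAs 2 changed direction, miR-3069-5p with the control samples of 24 h (1.31 against -0.03) and miR-22-3p with those of 0 h (0.42 against -0.01). The other changes of direction among the miRNAs named by the rule concerned ones that were not called. After median subtraction miR-191-5p was at 0.079, miR-25-5p at 0.056, miR-25-3p at 0.142, miR-181b-5p at 0.036 and miR-450b-3p at 0.052. After quantile normalisation miR-191-5p was at 0.0, miR-221-5p at -0.038, miR-181b-5p at 0.1999 and miR-16-5p at -0.692, and the last was then called (adjusted p = 0.0285); the cause was not tested. With control samples of 24 h, miR-142-3p was at -0.142, miR-25-5p at 0.1003, miR-25-3p at 0.190 and miR-221-5p at -1.257. With those of 0 h, an alternative added after the data were seen, miR-25-5p was at 0.144 and miR-221-5p at -0.465.

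With single samples or replicates left out, the differences ranged from -0.056 to 0.769 for miR-142-3p, -0.433 to 0.042 for miR-182-5p, -0.261 to 0.092 for miR-191-5p, -0.620 to 0.2004 for miR-21a-3p, -0.188 to 0.047 for miR-25-5p, -0.107 to 0.092 for miR-25-3p, -0.733 to 0.898 for miR-221-5p and -0.451 to 0.305 for miR-450b-3p. The tests of 6 h against 0 h and 2 h gave 0 calls under every alternative. The table does not give the counts behind each value, so the precision of rare miRNAs is known only from the spread of 3 samples.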
